A study of Homo sapiens with 9 samples.

Results

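A375 cells in which SPANX had been knocked down were compared with the empty vector control, taking both knockdown constructs together. A375 is a human melanoma cell line. All 9 libraries of the series entered the comparison, 3 in each of 3 groups. They were the EV control, SPANX KD 86 (KD 86) and SPANX KD 87 (KD 87), and the RNA of every group was taken 7 days after the knockdown. The numbers 86 and 87 are taken here as names of 2 knockdown constructs, whose target sequences are not given in the sources used here. The labels name 1 cell line for all groups, with no growth or treatment details. Whether replicates are separate cultures is not said, and a p-value then reflects the spread among these libraries only, part of which may be technical. The genes described are those whose level in all 6 knockdown libraries lay above, or in all 6 below, the levels in all 3 EV libraries. Such genes are called separated, and they numbered 2158 of 13825 genes tested.

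SPANX genes belong to the cancer-testis antigens, a class of proteins made in the male germ line and, after reactivation, in tumours such as melanoma. They form a family of nearly identical copies on the X chromosome and their proteins are found at the nucleus. The title of the series ties them to lamin A/C, the intermediate filament protein that lines the nucleus and helps to hold chromatin at its edge. A melanoma cell line such as A375 divides fast, and its cell cycle is driven by MAPK signalling into cyclins and E2F factors and held back by CDK inhibitors and p53 targets.

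The libraries were made from the 3′ ends of transcripts and held between 11.31 and 15.56 M reads, recovered from the deposited values. The targeted transcripts checked the labels. A SPANX copy at 0 in all libraries of any group was left out. Of the SPANX genes, SPANXC and SPANXD had values above 0 in all 3 groups. Their summed level was 499.8, 176.2 and 604.1 normalised reads in EV, 101.7, 36.1 and 42.5 in KD 86, and 29.7, 24.0 and 40.7 in KD 87. The groups did not overlap. The mean of both knockdowns was 9.04-fold lower than EV, with p = 0.0119 by an exact two-sided permutation test over 84 splits, the smallest p this design allows. With labels exchanged only among libraries of the same replicate number, a test chosen after seeing the data, the exact permutation p over 27 arrangements was 0.037, again the smallest possible. SPANXC alone stood at 398, 149 and 508 normalised reads in EV, 101, 35.1 and 42.5 in KD 86, and 24.7, 17.99 and 33.7 in KD 87, 8.36-fold lower. For SPANXD, 2 reads over the construct 86 libraries compared with 212 over the EV libraries, a ratio of 110 per read of depth (95% interval 30.1 to 915, counting error only). SPANX copies share most of their sequence, so reads may be split among them. Of 14 melanoma and melanocyte markers, 10 were measured, among them SOX10, MITF and PMEL. In the mean of both knockdowns 5 of the 10 were higher and 1 was lower. The 10 summed to 14600 to 26400 normalised reads in EV, 39000 to 61600 with construct 86 and 24500 to 37800 with construct 87. DCT, MLANA, TYR and TYRP1 were not tested, since a gene at 0 in all libraries of any group was left out. None of 5 endothelial markers, 1 of 7 leukocyte markers (LYZ) and 3 of 9 epithelial markers were tested. These 3 epithelial markers, KRT8, KRT14 and KRT18, were all lower in the knockdowns. They summed to 8000 to 11100 normalised reads in EV, 1920 to 2350 with construct 86 and 6650 to 7400 with construct 87. Of 10 fibroblast markers, 8 were measured and 7 of these were higher in the knockdowns. Their summed level ranged from 458 to 548 normalised reads in EV, from 1410 to 1670 with construct 86 and from 925 to 1140 with construct 87. COL1A1, COL1A2, DCN, LUM and POSTN are also members of the list of matrix proteins, so the 2 sets are not separate. The part of the fibroblast markers in the results on matrix genes was not tested.

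In the mean of both knockdowns, 3214 genes (23.2% of those tested) were higher and 3284 (23.8%) lower than in EV at an adjusted p under 0.05 in a limma fit with the replicate number as a block. Without the block, 1815 were higher and 1531 lower, and all 3346 of these were also called with it, in the same direction. The separated genes were the stricter group. All 6 knockdown libraries lay above EV for 1196 genes (8.65%) and below EV for 962 (6.96%). The adjusted p was under 0.05 for 1162 of the 1196 and 928 of the 962, as it had to be for most, since the same values chose them. Fits without the block still called 1054 and 788. A called change often went with overlapping groups, in 2052 of the 3214 higher genes and 2356 of the 3284 lower ones.

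Rises were larger than falls among the separated genes. The median rise was 1.06 on the log2 scale and the median fall -0.88, while the median over all tested genes was -0.03. A change over 2-fold was reached by 653 of the higher genes and 366 of the lower, over 4-fold by 152 and 48, and over 8-fold by 35 and 4. The gap between the nearest knockdown library and the nearest EV library exceeded 2-fold for 111 of the higher genes and 21 of the lower. A fold is given here on the scale of log2 of the level plus 1, which understates the change of genes with few reads. At the edge of the rule, ATMIN had 957.2 to 1212 normalised reads in EV and 1212 to 1638 in the knockdowns and was just inside. ERP29, with 1472 to 1797 in EV and 1797 to 1941 in the knockdowns, was just outside. Among the falls, C16orf80 was just inside, with 477.1 to 842.3 in EV and 396.2 to 477.1 in the knockdowns, and PAPD5 just outside, with 571.3 to 690.5 and 411.4 to 571.3.

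The 2 constructs differed in size of effect. In the construct 87 minus construct 86 contrast, 6100 of all tested genes (44.1%) were called. Of the 1196 separated rises, 404 were larger with construct 86, 42 were larger with construct 87 and 750 were not called different. Of the 962 falls, 220 were larger with construct 86, 64 with construct 87 and 678 were not called different. Both single-construct contrasts with EV were called for 927 of the 1196 rises and 645 of the 962 falls. Among the named genes, VIM, ENO1, KLF4, TGFBR3, LMNB1, NDUFS8, RPL24, RPL5 and RHBDL2 were called in the mean but not with construct 87 alone. Construct 87 replicate 3 was the knockdown library nearest to EV for 491 of the 1196 rises and 340 of the 962 falls. EV replicate 2 was the EV library nearest to the knockdowns for 659 of the rises, and EV replicate 3 for 422 of the falls. Without EV replicate 2, 2370 genes lay above and 2286 below the 2 remaining EV libraries, and without EV replicate 3 the numbers were 1541 and 1495. Without EV replicate 1 they were 1406 and 1162. Fewer libraries leave more genes separated, but the number grew most without EV replicate 2.

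The widest gap of all was that of MOBP, which encodes a protein of the myelin sheath. It stood at 0.990, 0 and 0 normalised reads in EV, 130.2, 162 and 285 in KD 86, and 597, 203 and 228 in KD 87. In recovered reads it had 1 over the EV libraries and 1599 over the knockdown libraries, a ratio of 775 per read of depth (95% interval 139 to 30600, counting error only). MOBP was chosen by this same gap, so the interval is a description and not a test. It pools both constructs and leaves out the spread among libraries. TRAF1, an adaptor of TNF receptors, stood at 65.3, 75.5 and 50.6 normalised reads in EV, 705, 1736 and 1674 in KD 86, and 861, 864 and 656 in KD 87, and rose 15.7-fold (log2 SE 0.24, adjusted p = 3.77e-06). CITED1, a transcriptional co-activator known from melanocytes, stood at 36.6, 14.1 and 17.9 normalised reads in EV, 420.1, 494 and 568 in KD 86, and 295, 254 and 264 in KD 87, and rose 16.6-fold (log2 SE 0.24, adjusted p = 3.77e-06). For all 3 genes the lowest knockdown library lay several fold above the highest EV library.

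ABCB4, a phospholipid transporter of the liver, had 7.92, 10.1 and 8.93 normalised reads in EV, 87.5, 219 and 166 in KD 86, and 127, 164 and 90.3 in KD 87, and rose 13.7-fold (log2 SE 0.25, adjusted p = 4.58e-06). OTOGL, which encodes an otogelin-like protein of the inner ear, had 7.92, 9.06 and 8.93 normalised reads in EV, 62.0, 78.2 and 73.8 in KD 86, and 98.97, 108 and 84.3 in KD 87, and rose 8.71-fold (log2 SE 0.21, adjusted p = 4.58e-06). Both had few reads in the EV libraries, whose 3 values lay close together. NIPAL4, a membrane protein of the skin barrier, stood at 22.8, 16.1 and 15.9 normalised reads in EV, 257, 253 and 217 in KD 86, and 107, 106 and 119 in KD 87, and rose 8.66-fold (log2 SE 0.19, adjusted p = 3.77e-06). DSC2, a desmosomal cadherin, stood at 39.6, 70.5 and 62.5 normalised reads in EV, 312, 393 and 433 in KD 86, and 559, 353 and 384 in KD 87, and rose 7.03-fold (log2 SE 0.22, adjusted p = 1.1e-05). FOXF1, a forkhead transcription factor, stood at 29.7, 29.2 and 14.9 normalised reads in EV, 172, 233 and 282 in KD 86, and 228, 151 and 123 in KD 87, and rose 7.81-fold (log2 SE 0.27, adjusted p = 2.34e-05). NIPAL4 differed between the constructs and DSC2 and FOXF1 were not called different.

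Some of the wide-gap genes moved by nearly the same amount with either construct. SEMA7A, a membrane-anchored semaphorin, had 998, 1159 and 936 normalised reads in EV, 4536, 6449 and 5084 in KD 86, and 5154, 6338 and 4458 in KD 87, and rose 5.14-fold (log2 SE 0.12, adjusted p = 2.23e-06). Its change was 5.16-fold with construct 86 and 5.12-fold with construct 87. PBXIP1, a protein that binds PBX factors, had 481, 392 and 574 normalised reads in EV, 2286, 3534 and 3069 in KD 86, and 3138, 2615 and 2746 in KD 87, and rose 6.01-fold (log2 SE 0.17, adjusted p = 4.24e-06), 6.11-fold and 5.92-fold with the single constructs. NREP, a neuronal regeneration-related protein, had 295, 295 and 445 normalised reads in EV, 2205, 2049 and 2237 in KD 86, and 3767, 1702 and 1665 in KD 87, and DUSP16, a phosphatase that acts on JNK and p38 kinases, had 52.5, 84.6 and 81.3 normalised reads in EV, 370.3, 456 and 451 in KD 86, and 593, 392 and 302 in KD 87. They rose 6.43-fold (log2 SE 0.23, adjusted p = 1.68e-05) and 5.81-fold (log2 SE 0.23, adjusted p = 2.34e-05). The single-construct values share the EV libraries. For SEMA7A the difference between constructs was -0.01 (SE 0.14, adjusted p = 0.96) on the log2 scale and for PBXIP1 -0.05 (SE 0.19, adjusted p = 0.866), both short of the threshold.

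CTSS and FBXO32 rose with both constructs but not to the same height. CTSS, a lysosomal cysteine protease of antigen-presenting cells, had 69.3, 68.5 and 100.2 normalised reads in EV, 579, 1614 and 2301 in KD 86, and 532, 487 and 588 in KD 87, and rose 10.5-fold (log2 SE 0.26, adjusted p = 8.79e-06). FBXO32 encodes atrogin-1, a ubiquitin ligase subunit induced by FOXO factors, and had 119.8, 127 and 158 normalised reads in EV, 713, 2536 and 3585 in KD 86, and 903, 684 and 745 in KD 87, rising 8.91-fold (log2 SE 0.33, adjusted p = 5.36e-05). In both, construct 86 replicate 1 lay well below replicates 2 and 3 and near the construct 87 libraries.

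**Figure D1:**
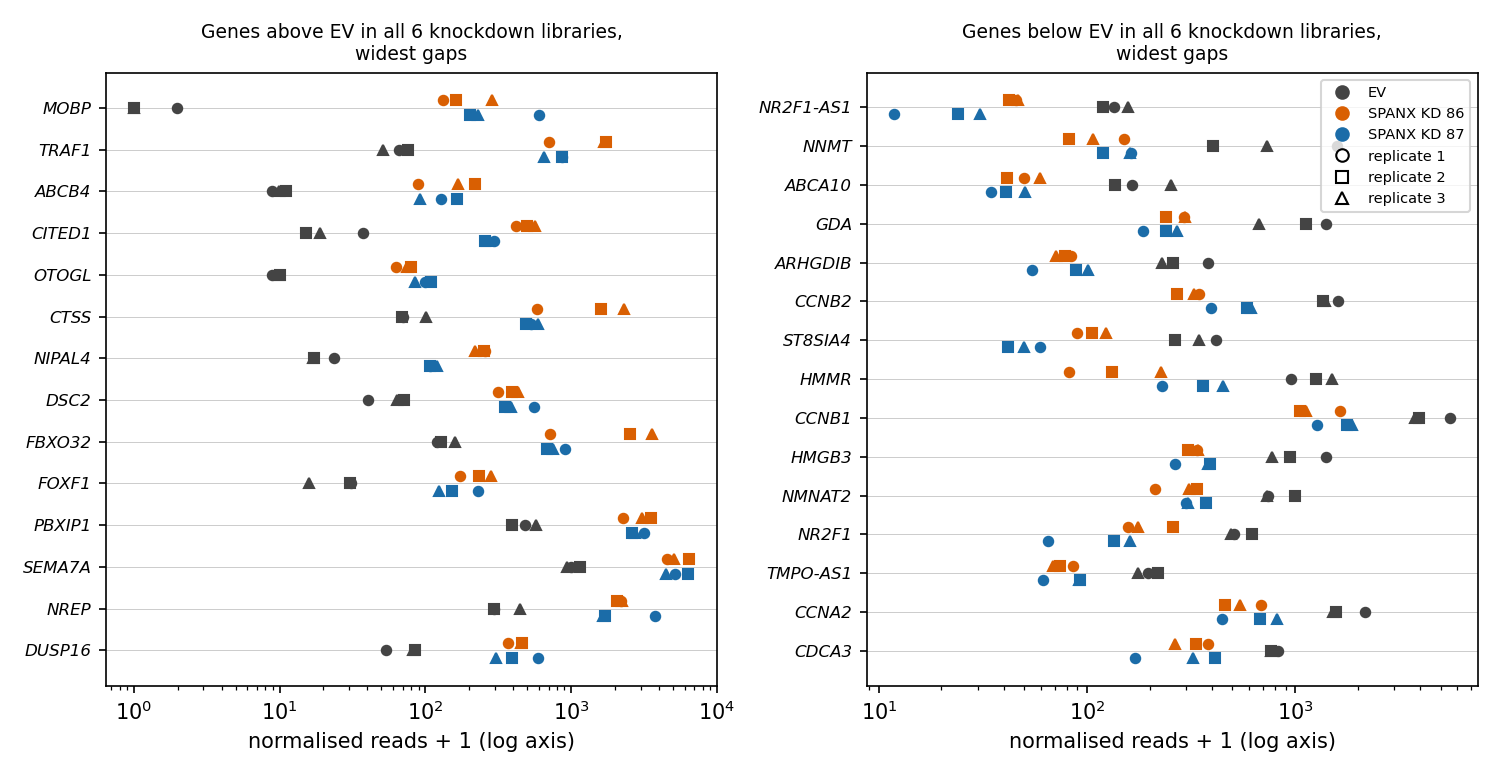
Levels in each library (normalised reads plus 1, log axis) of 14 separated rises (left) and 15 separated falls (right) among those with the widest gaps. Colour marks the group (EV, SPANX KD 86, SPANX KD 87), and the shape of a point the replicate number. MOBP stands at 0 or 1 in the EV libraries and at 130.2 or above in every knockdown library.

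Among the separated falls, cell division genes made up several of the widest gaps. HMMR, a receptor for hyaluronan that also acts at the mitotic spindle, had 951, 1260 and 1509 normalised reads in EV, 81.4, 131 and 226 in KD 86, and 229, 361 and 449 in KD 87, and fell 5.73-fold (log2 SE 0.15, adjusted p = 3.77e-06). CCNB2, a mitotic cyclin, had 1609, 1367 and 1384 normalised reads in EV, 346, 269 and 326 in KD 86, and 392, 587 and 611 in KD 87, and fell 3.59-fold (log2 SE 0.17, adjusted p = 2.39e-05). CCNB1, another mitotic cyclin, had 5531, 3935 and 3756 normalised reads in EV, 1634, 1056 and 1128 in KD 86, and 1267, 1768 and 1869 in KD 87. It fell 3.06-fold (log2 SE 0.19, adjusted p = 0.000102). HMMR and CCNB2 were lower with construct 86 than with construct 87, and the constructs were not called different for CCNB1. CCNA2, the cyclin of S phase and G2, had 2167, 1571 and 1524 normalised reads in EV, 688, 461 and 545 in KD 86, and 442, 674 and 813 in KD 87, and CDCA3, a trigger of mitotic entry, had 824, 765 and 764 normalised reads in EV, 380.4, 333 and 263 in KD 86, and 169, 409.7 and 320.4 in KD 87. They fell 2.93-fold (log2 SE 0.21, adjusted p = 0.000239) and 2.60-fold (log2 SE 0.23, adjusted p = 0.000833).

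The other wide-gap falls came from several functions. NNMT, which methylates nicotinamide, had 1581, 402 and 729 normalised reads in EV, 149.5, 81.2 and 106 in KD 86, and 161, 119 and 161 in KD 87, and fell 6.11-fold (log2 SE 0.22, adjusted p = 1.68e-05). GDA, guanine deaminase, had 1407, 1123 and 666 normalised reads in EV, 292, 239.7 and 293 in KD 86, and 184, 238 and 269.8 in KD 87, and fell 4.06-fold (log2 SE 0.22, adjusted p = 7.19e-05). NMNAT2, an enzyme of NAD synthesis, had 743, 1002 and 729 normalised reads in EV, 212, 337 and 308 in KD 86, and 297, 374 and 304 in KD 87, and fell 2.71-fold (log2 SE 0.14, adjusted p = 3.69e-05). These are 3 enzymes of nicotinamide or purine metabolism. NR2F1, an orphan nuclear receptor, had 507, 620.1 and 492 normalised reads in EV, 157, 257 and 174 in KD 86, and 64.3, 134 and 159.7 in KD 87, and its antisense neighbour NR2F1-AS1 had 134, 119 and 157 normalised reads in EV, 44.8, 41.1 and 45.5 in KD 86, and 10.9, 23.0 and 29.8 in KD 87. They fell 3.66-fold (log2 SE 0.21, adjusted p = 7.6e-05) and 4.49-fold (log2 SE 0.26, adjusted p = 0.000119), and for both the fall was larger with construct 87. The strand setting of the counting is not given in the sources used here, so reads of a gene and of its antisense neighbour may not be separate. The same limit holds for TMPO-AS1, which had 196, 219 and 175 normalised reads in EV, 84.4, 73.2 and 67.7 in KD 86, and 60.4, 91.9 and 90.3 in KD 87 and fell 2.52-fold (log2 SE 0.20, adjusted p = 0.000398).

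ST8SIA4, a polysialyltransferase of the Golgi, had 414, 265 and 346 normalised reads in EV, 88.5, 105 and 122 in KD 86, and 58.4, 41.0 and 48.6 in KD 87, and fell 4.65-fold (log2 SE 0.19, adjusted p = 1.83e-05). ARHGDIB, an inhibitor of small GTPases known mainly from blood cells, had 380.1, 258 and 227 normalised reads in EV, 82.4, 77.2 and 69.8 in KD 86, and 53.4, 87.9 and 100.2 in KD 87, and fell 3.62-fold (log2 SE 0.24, adjusted p = 0.000204). ABCA10, a lipid transporter of the ABC family, had 163, 135 and 253 normalised reads in EV, 48.8, 40.1 and 58.6 in KD 86, and 33.6, 40.0 and 49.6 in KD 87, and fell 3.93-fold (log2 SE 0.19, adjusted p = 3.93e-05). HMGB3, a chromatin protein with HMG boxes, had 1404, 944 and 774 normalised reads in EV, 338, 305 and 341 in KD 86, and 264, 389.7 and 381 in KD 87, and fell 3.02-fold (log2 SE 0.20, adjusted p = 0.000162). Of these 4 genes, ST8SIA4 was the one for which the constructs were called different, with lower levels under construct 87.

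Counted in reads gained or lost, other separated genes led. SPARC, a secreted glycoprotein that binds collagen, had 15310, 16570 and 18580 normalised reads in EV, 145400, 155300 and 159200 in KD 86, and 74600, 59900 and 59930 in KD 87, and rose 5.93-fold (log2 SE 0.17, adjusted p = 4.58e-06). Its gain was 92240 normalised reads in the mean of both knockdowns. DCBLD2, a receptor-like membrane protein, had 7816, 12050 and 11510 normalised reads in EV, 44190, 43960 and 38670 in KD 86, and 31530, 27860 and 23300 in KD 87, and rose 3.31-fold (log2 SE 0.18, adjusted p = 5.38e-05). TMEM2, a cell-surface hyaluronidase, had 1552, 3169 and 1242 normalised reads in EV, 12140, 17880 and 11170 in KD 86, and 39820, 24850 and 9988 in KD 87, and rose 9.28-fold (log2 SE 0.27, adjusted p = 1.68e-05). HMGA2, a chromatin protein that binds AT-rich DNA, had 3532, 5839 and 5979 normalised reads in EV, 27440, 30080 and 29850 in KD 86, and 12680, 14550 and 15030 in KD 87, and rose 4.06-fold (log2 SE 0.15, adjusted p = 7.75e-06). VIM, the intermediate filament vimentin, had 40550, 48530 and 33710 normalised reads in EV, 71010, 60770 and 52460 in KD 86, and 58570, 56110 and 51480 in KD 87, and rose 1.43-fold (log2 SE 0.17, adjusted p = 0.027). The change of VIM was small beside the others, and in the fit without the block its adjusted p was 0.0951. With 1 library left out at a time, its adjusted p lay between 0.0531 and 0.14 without EV replicate 1 or 3, construct 86 replicate 1 or 3, or construct 87 replicate 2 or 3.

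The largest loss of reads was that of HSP90AA1, the inducible cytosolic HSP90, with 63100, 52560 and 51480 normalised reads in EV, 18240, 14670 and 17760 in KD 86, and 23360, 33110 and 40330 in KD 87. It fell 2.41-fold (log2 SE 0.20, adjusted p = 0.000529). HSPD1, the mitochondrial chaperonin, had 20900, 15680 and 13660 normalised reads in EV, 5261, 4179 and 5315 in KD 86, and 7301, 9360 and 10950 in KD 87, and fell 2.47-fold (log2 SE 0.18, adjusted p = 0.000317). Both heat shock proteins were lower with construct 86 than with construct 87. ENO1, a glycolytic enolase, had 48130, 49340 and 31190 normalised reads in EV, 24290, 23100 and 21460 in KD 86, and 25060, 31060 and 28930 in KD 87, and fell 1.65-fold (log2 SE 0.17, adjusted p = 0.00628). TUBA1B, an alpha-tubulin, had 22370, 20150 and 14250 normalised reads in EV, 12170, 10380 and 8691 in KD 86, and 8265, 12160 and 10620 in KD 87, and fell 1.81-fold (log2 SE 0.18, adjusted p = 0.00278). HNRNPA2B1, an RNA-binding protein, had 23340, 27920 and 19140 normalised reads in EV, 16010, 16590 and 15650 in KD 86, and 11740, 16270 and 15780 in KD 87, and fell 1.52-fold (log2 SE 0.16, adjusted p = 0.00964). Without EV replicate 1, the adjusted p was 0.057 for ENO1 and 0.0663 for HNRNPA2B1.

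The genes were also grouped by 24 lists of pathways and cell functions, against the 23.2% of all tested genes that were higher and the 23.8% that were lower. Separated rises made up 8.65% and separated falls 6.96% of all tested genes. Of 58 genes of G2/M and mitosis, 56 fell, 0 rose and 34 were separated falls. The median was -1.07 on the log2 scale. PLK1, a mitotic kinase, had 2983, 3943 and 1886 normalised reads in EV, 713, 775 and 612 in KD 86, and 714, 1597 and 1060 in KD 87, and fell 3.26-fold (log2 SE 0.19, adjusted p = 7.85e-05). The 2 members that did not pass were CENPF and INCENP, and 44 of the 58 were lower without the block. Of 45 genes of G1/S and DNA replication, 38 fell, 0 rose and 22 were separated falls, with a median of -0.83. MCM6, a subunit of the replicative helicase, had 1673, 1773 and 1054 normalised reads in EV, 627, 468 and 539.8 in KD 86, and 389.9, 502 and 505 in KD 87, and fell 2.92-fold (log2 SE 0.18, adjusted p = 0.000109). TYMS, thymidylate synthase, had 4735, 3350 and 2587 normalised reads in EV, 2203, 1361 and 1398 in KD 86, and 1196, 1400 and 1378 in KD 87, and fell 2.36-fold (log2 SE 0.17, adjusted p = 0.00032). GINS2, which holds the helicase together with its partners, had 1018, 534 and 955 normalised reads in EV, 462, 265 and 384 in KD 86, and 184, 221 and 321 in KD 87, and CCNE2, a cyclin of the G1/S transition, had 396, 501 and 488 normalised reads in EV, 140.4, 124 and 192 in KD 86, and 159, 196 and 244 in KD 87. They fell 2.75-fold (log2 SE 0.20, adjusted p = 0.000242) and 2.67-fold (log2 SE 0.16, adjusted p = 7.26e-05). At an unadjusted p under 0.05 in limma, 0 genes of either list were higher. In bulk RNA, fewer cells in a cycle phase and less RNA per cell cannot be told apart.

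Genes of both lists are known for short sequence elements near their start sites, which is why stretches of 6 promoters are shown. The cell cycle homology region (CHR, TTTGAA) with CCAAT boxes upstream is typical of G2/M genes, and E2F sites (TTTGGCGC or TTTCCCGC) are typical of G1/S genes. The 120-base stretches below come from RefSeq promoter windows on GRCh38.p14 (250 bases before to 50 after the start), read on the gene's strand, with matches to any of these 3 motifs on either strand in capitals. The first 3 hold a CHR and CCAAT matches, and the last 3 an E2F match, beside which MCM6 also holds CCAAT matches.
HMMR: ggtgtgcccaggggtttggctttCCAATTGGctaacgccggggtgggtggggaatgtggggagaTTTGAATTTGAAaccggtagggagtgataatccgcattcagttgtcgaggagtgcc
CCNB2: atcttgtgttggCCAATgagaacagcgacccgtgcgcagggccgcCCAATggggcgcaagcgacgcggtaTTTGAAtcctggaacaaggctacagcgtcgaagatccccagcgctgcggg
PLK1: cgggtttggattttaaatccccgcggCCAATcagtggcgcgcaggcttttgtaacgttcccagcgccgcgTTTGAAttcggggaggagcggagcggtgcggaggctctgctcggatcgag
MCM6: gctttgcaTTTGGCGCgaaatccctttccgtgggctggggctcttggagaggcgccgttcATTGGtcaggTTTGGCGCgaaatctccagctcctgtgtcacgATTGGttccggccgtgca
GINS2: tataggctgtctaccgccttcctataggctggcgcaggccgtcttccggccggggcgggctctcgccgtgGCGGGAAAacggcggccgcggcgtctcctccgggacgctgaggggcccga
TYMS: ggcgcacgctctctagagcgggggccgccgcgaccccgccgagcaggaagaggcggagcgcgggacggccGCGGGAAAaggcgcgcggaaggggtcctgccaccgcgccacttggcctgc
HMMR held 2 CHR matches next to each other, and PLK1 and CCNB2 held 1 each. MCM6 held 2 E2F matches. The stretches lie at chr5:163460540-163460659 on the plus strand (HMMR), chr15:59105047-59105166 on the plus strand (CCNB2), chr16:23678790-23678909 on the plus strand (PLK1), chr2:135876484-135876603 on the minus strand (MCM6), chr16:85688936-85689055 on the minus strand (GINS2) and chr18:657544-657663 on the plus strand (TYMS). The window of CCNB1 held no TTTGAA. A match is a description of these letters and not a measured binding site.

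Over the promoters, the elements were counted in every window of 300 bases. Windows were matched by symbol for 9588 of the 13825 tested genes, 886 of the 1196 separated rises and 697 of the 962 separated falls. TTTGAA, on either strand, was in 66.0% of 47 windows of the G2/M list, in 2.56% of 39 windows of the G1/S list, in 14.5% of the windows of separated falls, in 7.56% of those of separated rises and in 9.60% of all tested windows. CCAAT was in 76.6%, 53.8%, 45.1%, 33.3% and 36.9% in the same order. The E2F letters were in 6.38% of the G2/M windows, 48.7% of the G1/S windows, 6.31% of the separated falls, 2.93% of the separated rises and 3.67% of all tested windows. Over the 27305 windows of the whole table the shares were 15.4% for TTTGAA, 35.7% for CCAAT and 2.31% for E2F. The E-box CACGTG was in 9.26% of windows of separated rises, 10.5% of falls and 10.1% of all tested, and the TEAD letters GGAATG in 106 of 886, 75 of 697 and 1052 of 9588. The FOXO letters GTAAACA were in 3.05%, 2.01% and 2.27%, and the AP-1 letters TGAGTCA in 3.95%, 2.58% and 3.16%. For these motifs the shares of the separated genes stood near those of all tested windows. Within lists the shares rest on few windows and were not tested. GTAAACA was in 4 of 22 windows of the list of AKT and FOXO targets (18.2%), and CACGTG in 7 of 23 windows of the lysosomal list (30.4%). All 7 of these held TCACGTG, the longer form that overlaps CACGTG and is named CLEAR, which was in 6.55% of windows of separated rises, 4.02% of falls and 5.84% of all tested. Rare motifs gave few matches. An NF-kB match was in 5 windows of separated rises, 0 of falls and 35 of all tested (0.365%). A heat shock element was in 1 window of separated rises, 6 of falls (0.861%) and 30 of all tested (0.313%), and in 4 of 31 windows of the chaperone list (12.9%).

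**Figure D2:**
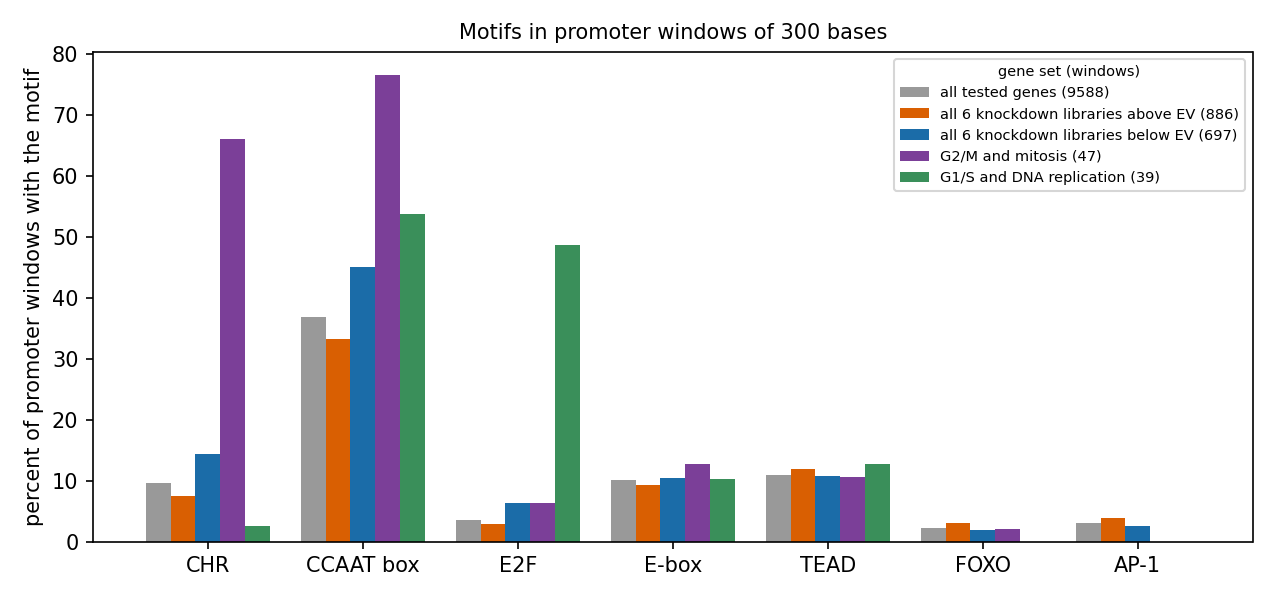
Percent of promoter windows of 300 bases that held each motif, for all tested genes, the separated rises and falls, and the G2/M and G1/S lists. The CHR bar of the G2/M list reaches 66.0% and the E2F bar of the G1/S list 48.7%, against 9.60% and 3.67% of all tested windows.

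Among p53 targets, more genes rose than fell. Of 36 p53 targets, 20 rose, 3 fell (TRIAP1, CMBL and KITLG) and 14 were separated rises, with a median of 0.43. BTG2, an antiproliferative factor, had 329, 289.9 and 302 normalised reads in EV, 2045, 1598 and 1408 in KD 86, and 996, 625 and 678 in KD 87, and rose 3.63-fold (log2 SE 0.13, adjusted p = 6.35e-06). SESN2, a stress-induced regulator of mTORC1, had 323, 365 and 223 normalised reads in EV, 1437, 1371 and 675 in KD 86, and 1264, 1070 and 606 in KD 87, and rose 3.40-fold (log2 SE 0.14, adjusted p = 8.79e-06). ZMAT3, an RNA-binding p53 target, had 425, 490.2 and 413 normalised reads in EV, 1601, 1400 and 1054 in KD 86, and 2047, 1295 and 1240 in KD 87, and BBC3, which encodes the pro-apoptotic protein PUMA, had 219.7, 158 and 182 normalised reads in EV, 639, 645 and 613 in KD 86, and 503, 445 and 509 in KD 87. They rose 3.19-fold (log2 SE 0.15, adjusted p = 2.34e-05) and 2.98-fold (log2 SE 0.14, adjusted p = 1.83e-05). CDKN1A, the CDK inhibitor p21, had 5558, 3866 and 3607 normalised reads in EV, 11720, 10660 and 10680 in KD 86, and 11710, 8292 and 8199 in KD 87, and rose 2.37-fold (log2 SE 0.13, adjusted p = 6.05e-05). CDKN1B, the inhibitor p27, had 527, 411 and 543 normalised reads in EV, 1672, 1122 and 1097 in KD 86, and 1202, 868 and 905 in KD 87, and rose 2.28-fold (log2 SE 0.13, adjusted p = 8.16e-05). The list of D-type cyclins, G1 CDKs and inhibitors was mixed, with 6 of 23 higher and 8 lower. Its separated rises were CDK6, CDKN1A, CDKN1B and CDKN1C, and its separated falls were CCNE2, CDKN2C, E2F2 and E2F8. CDK6, a kinase that promotes the cycle, had 502, 1219 and 569 normalised reads in EV, 5463, 5670 and 2778 in KD 86, and 2229, 2185 and 1352 in KD 87, and rose 4.08-fold (log2 SE 0.20, adjusted p = 4.02e-05).

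**Figure D3:**
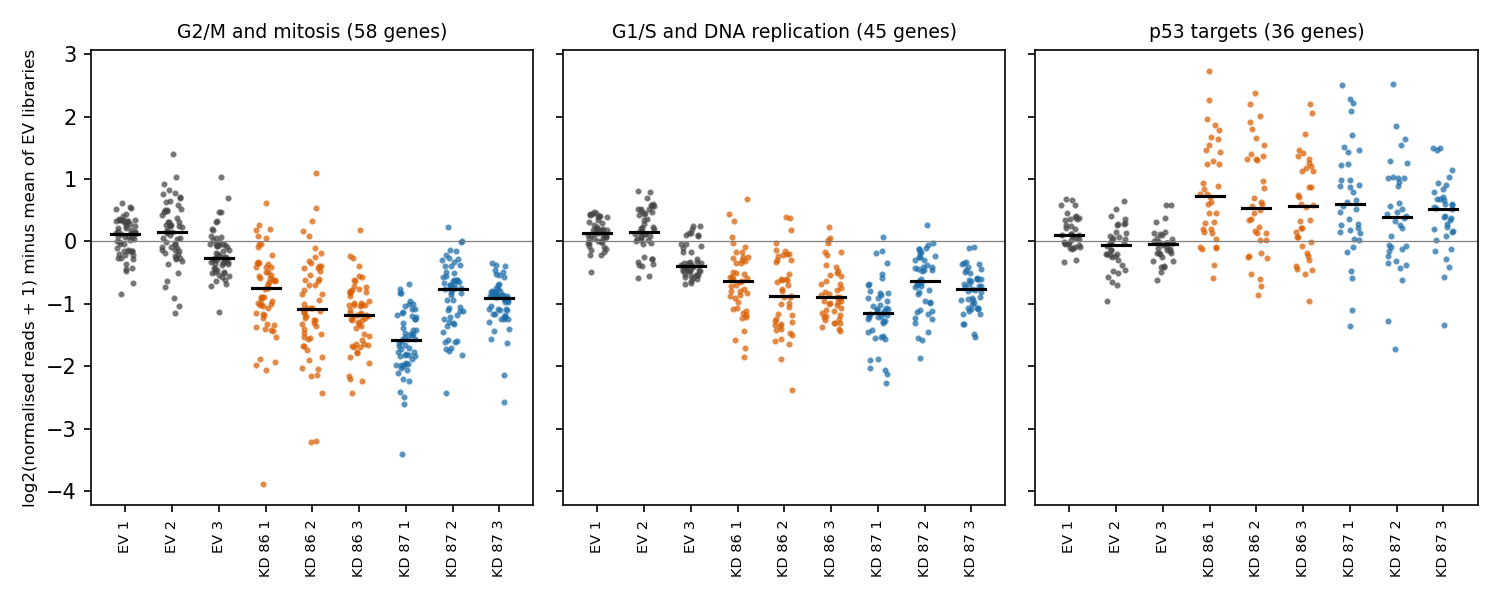
Each point is a gene of the G2/M, G1/S or p53 list in 1 library, as log2(normalised reads + 1) minus that gene's mean over the EV libraries, and the bars are medians over the list. In all 6 knockdown libraries the medians of both division lists lie below those of the 3 EV libraries, and the medians of the p53 list lie above them.

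Most listed matrix proteins and integrins rose. Of 37 matrix proteins, 28 rose, 1 fell (BGN) and 12 were separated rises, with a median of 1.19 on the log2 scale. SCUBE3, a secreted protein with EGF-like domains, had 11.9, 36.2 and 33.7 normalised reads in EV, 5518, 8756 and 6445 in KD 86, and 142, 129 and 104 in KD 87, and rose 36.0-fold (log2 SE 0.26, adjusted p = 2.23e-06). SPON2, an F-spondin family matrix protein, had 78.2, 57.4 and 101 normalised reads in EV, 5543, 4156 and 6069 in KD 86, and 246, 106 and 108 in KD 87, and rose 11.03-fold (log2 SE 0.21, adjusted p = 3.77e-06). ACAN, the proteoglycan aggrecan, had 3.96, 28.2 and 5.95 normalised reads in EV, 711, 1702 and 1039 in KD 86, and 68.3, 77.0 and 70.4 in KD 87, and rose 28.0-fold (log2 SE 0.32, adjusted p = 4.58e-06). These 3 were separated with either construct, but most of the rise came with construct 86, and the differences between constructs were -5.76, -5.19 and -3.89 on the log2 scale. Of 24 integrins and adhesion genes, 17 rose, 3 fell (ITGB4, L1CAM and ITGB5) and 7 were separated rises. ITGA5, the alpha chain of a fibronectin receptor, had 1589, 3097 and 2152 normalised reads in EV, 10400, 23010 and 19700 in KD 86, and 5824, 8149 and 6117 in KD 87, and rose 4.80-fold (log2 SE 0.15, adjusted p = 4.58e-06). ITGAV had 1104, 1660 and 1212 normalised reads in EV, 6868, 8875 and 8157 in KD 86, and 4137, 3450 and 3287 in KD 87, ITGB3 had 59.4, 265 and 165 normalised reads in EV, 1204, 2960 and 2909 in KD 86, and 377, 434 and 299 in KD 87 and ITGB8 had 624, 1048 and 1058 normalised reads in EV, 2625, 3122 and 3318 in KD 86, and 7526, 4922 and 4299 in KD 87. They rose 4.09-fold (log2 SE 0.15, adjusted p = 7.09e-06), 6.46-fold (log2 SE 0.27, adjusted p = 4.45e-05) and 4.56-fold (log2 SE 0.22, adjusted p = 3.93e-05). ITGB8 was the one of the 4 that stood higher with construct 87.

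Of 28 proteases and inhibitors, 18 rose, 3 fell (ADAM15, SERPINE2 and SERPINF1), 12 were separated rises and 1 a separated fall. TIMP2, an inhibitor of matrix metalloproteinases, had 1301, 1784 and 1692 normalised reads in EV, 8481, 9036 and 8455 in KD 86, and 3881, 4070 and 3914 in KD 87, and rose 3.71-fold (log2 SE 0.12, adjusted p = 4.58e-06). ADAM12, a membrane metalloproteinase, had 62.4, 139 and 38.7 normalised reads in EV, 584, 828 and 362 in KD 86, and 357, 377 and 188 in KD 87, and rose 5.76-fold (log2 SE 0.18, adjusted p = 6.44e-06). MMP15, a membrane-type matrix metalloproteinase, had 55.4, 72.5 and 50.6 normalised reads in EV, 1152, 804 and 422 in KD 86, and 712, 374 and 195 in KD 87, and rose 8.76-fold (log2 SE 0.24, adjusted p = 8.79e-06). In MMP15 replicate 3 was the lowest library of each group, and the groups still did not overlap. Of 38 lysosomal genes, 30 rose, 1 fell (GUSB) and 15 were separated rises, with a median of 0.79. SMPD1, acid sphingomyelinase, had 345, 349 and 366 normalised reads in EV, 1622, 1808 and 1647 in KD 86, and 877, 774 and 599 in KD 87, and rose 3.16-fold (log2 SE 0.14, adjusted p = 1.49e-05). CTSA, which protects lysosomal glycosidases, had 1492, 1906 and 1688 normalised reads in EV, 6177, 7629 and 6327 in KD 86, and 5306, 4577 and 3710 in KD 87, and ARSA, arylsulfatase A, had 124, 149 and 180.5 normalised reads in EV, 430.3, 656 and 667 in KD 86, and 357, 399.7 and 348 in KD 87. They rose 3.24-fold (log2 SE 0.14, adjusted p = 1.51e-05) and 3.06-fold (log2 SE 0.15, adjusted p = 3.06e-05).

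**Figure D4:**
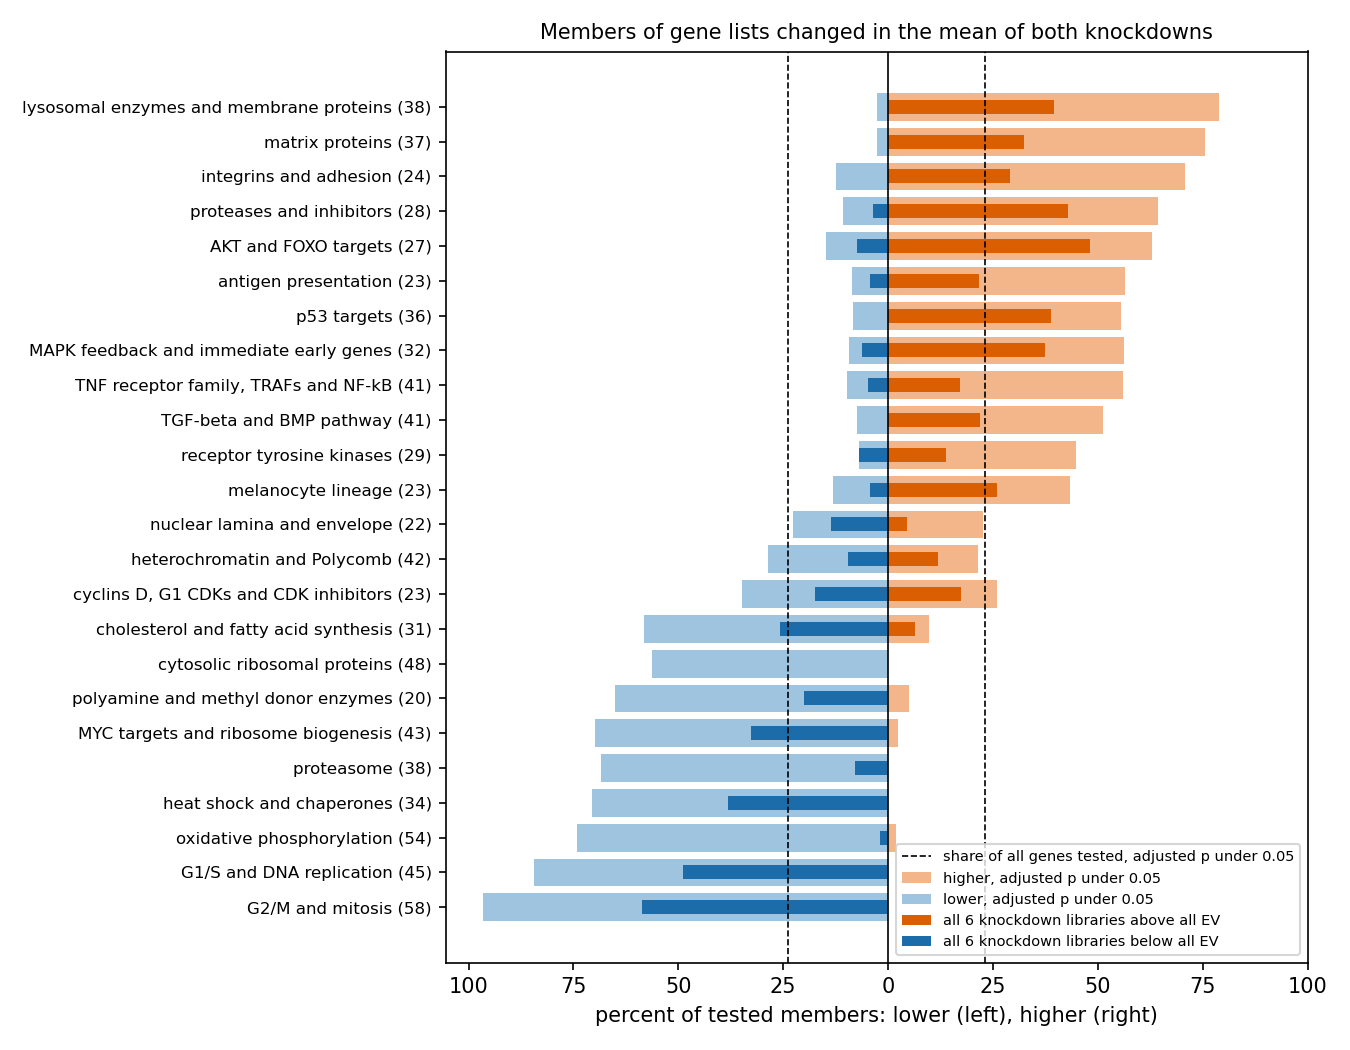
For each of 24 gene lists (number of tested members in parentheses), the percent of members called higher (right) and lower (left) in the mean of both knockdowns (light bars), and the percent separated (dark bars). Dashed lines mark the 23.2% and 23.8% of all tested genes called higher and lower. For the cytosolic ribosomal proteins 27 of 48 were lower and 0 separated.

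In the list of TNF receptors, TRAFs and NF-kB, 23 of 41 rose, 4 fell (MAP3K14, CHUK, TRAF2 and IKBKG), and 7 were separated rises. MAP3K14 and CHUK were separated falls. BIRC3, the cellular inhibitor of apoptosis cIAP2, had 46.5, 69.5 and 146 normalised reads in EV, 332, 3101 and 4546 in KD 86, and 1044, 1252 and 1635 in KD 87, and rose 18.6-fold (log2 SE 0.41, adjusted p = 3.93e-05). Its relative BIRC2 had 1121, 1188 and 1404 normalised reads in EV, 2927, 3409 and 4191 in KD 86, and 1717, 1686 and 2093 in KD 87, and rose 2.04-fold (log2 SE 0.11, adjusted p = 7.55e-05). RELB, the NF-kB subunit of the non-canonical branch, had 219, 350.3 and 244 normalised reads in EV, 632, 1485 and 1482 in KD 86, and 786, 704 and 621 in KD 87, and rose 3.32-fold (log2 SE 0.22, adjusted p = 0.000184). The spread among construct 86 libraries was wide for BIRC3, whose replicate 1 stood at 331.6 beside 3101 and 4546. Of 41 genes of the TGF-beta and BMP pathway, 21 rose, 3 fell (FST, BMP4 and NOG) and 9 were separated rises. The receptor TGFBR2 had 1026, 1408 and 1059 normalised reads in EV, 3383, 3798 and 2963 in KD 86, and 4714, 3751 and 2851 in KD 87, and rose 3.06-fold (log2 SE 0.15, adjusted p = 2.41e-05). BAMBI, a decoy receptor, had 424, 349 and 340.2 normalised reads in EV, 2030, 1582 and 1473 in KD 86, and 902, 768 and 907 in KD 87, and rose 3.24-fold (log2 SE 0.12, adjusted p = 7.09e-06). The co-receptor TGFBR3 had 62.4, 93.6 and 74.4 normalised reads in EV, 615, 501 and 342 in KD 86, and 124, 123 and 94.2 in KD 87, and SMURF2, a ubiquitin ligase for SMADs and receptors, had 861, 1552 and 1131 normalised reads in EV, 3903, 3754 and 2653 in KD 86, and 2093, 2603 and 1824 in KD 87. They rose 3.02-fold (log2 SE 0.19, adjusted p = 0.000119) and 2.35-fold (log2 SE 0.16, adjusted p = 0.000188). With construct 87 alone TGFBR3 was not called in limma (adjusted p = 0.0713).

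Of 32 genes of MAPK feedback and the immediate early response, 18 rose, 3 fell (MYC, SPRY1 and EGR1), 12 were separated rises and 2 separated falls. DUSP10 and DUSP5 are phosphatases that switch off MAP kinases. DUSP10 had 250.4, 237 and 234 normalised reads in EV, 1726, 1390 and 1561 in KD 86, and 918, 922 and 846 in KD 87, and rose 4.89-fold (log2 SE 0.12, adjusted p = 2.41e-06). DUSP5 had 371, 507 and 426 normalised reads in EV, 1971, 2255 and 2202 in KD 86, and 2315, 2268 and 1563 in KD 87, and rose 4.81-fold (log2 SE 0.15, adjusted p = 4.24e-06). SPRY4, an inhibitor of receptor signalling to RAS, had 235, 547 and 388 normalised reads in EV, 3445, 4810 and 3464 in KD 86, and 1135, 1213 and 606 in KD 87, and IL6ST, the shared receptor chain gp130, had 1212, 2890 and 1971 normalised reads in EV, 9919, 14580 and 11680 in KD 86, and 4959, 5128 and 3291 in KD 87. They rose 5.17-fold (log2 SE 0.21, adjusted p = 2.18e-05) and 3.79-fold (log2 SE 0.19, adjusted p = 4.37e-05). IL6ST encodes a receptor chain and not a MAPK feedback inhibitor, and the counts of this list include it. Of 29 receptor tyrosine kinases, 13 rose and 2 fell (MST1R and NTRK2, both separated). Without the block 6 rose and 1 fell, and with a trend in transcript length removed from each library 9 rose and 6 fell. Its 4 separated rises were KDR, PDGFRA, IGF1R and FGFR4. KDR, a VEGF receptor, had 45.5, 77.5 and 29.8 normalised reads in EV, 818, 1024 and 476 in KD 86, and 777, 498 and 179.5 in KD 87, and rose 11.4-fold (log2 SE 0.23, adjusted p = 4.58e-06). PDGFRA had 12.9, 22.1 and 14.9 normalised reads in EV, 154, 122 and 100.1 in KD 86, and 69.3, 44.0 and 35.7 in KD 87, and rose 4.53-fold (log2 SE 0.26, adjusted p = 0.000109). In DDR1, a collagen receptor, and EPHB3, an ephrin receptor, the groups overlapped, since an EV library at 2199 and at 145.0 exceeded the lowest construct 87 library at 1712 and at 85.3. Their mean rises were 2.44-fold (log2 SE 0.16, adjusted p = 0.000144) and 3.50-fold (log2 SE 0.22, adjusted p = 0.000152).

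Targets of FOXO factors, which are held in the cytoplasm by AKT, showed 17 of 27 higher, 4 lower (IRS1, PDK4, KLF2 and TRIB3), 13 separated rises and 2 separated falls. BCL6, a transcriptional repressor, had 62.4, 125 and 95.2 normalised reads in EV, 631, 1441 and 1300 in KD 86, and 263, 329 and 287 in KD 87, and rose 6.08-fold (log2 SE 0.17, adjusted p = 4.58e-06). C10orf10, also called DEPP1 and induced by FOXO, had 1.98, 6.04 and 4.96 normalised reads in EV, 136, 183 and 283 in KD 86, and 20.8, 27.0 and 63.5 in KD 87, and rose 16.2-fold (log2 SE 0.27, adjusted p = 4.58e-06). KLF4, a zinc finger factor, had 312, 397 and 325 normalised reads in EV, 1195, 1420 and 1353 in KD 86, and 436, 459.7 and 457 in KD 87, and rose 2.25-fold (log2 SE 0.12, adjusted p = 5.18e-05). All 3 were higher with construct 86 than with construct 87. With construct 87 alone KLF4 rose 1.315-fold and was not called in limma (adjusted p = 0.053).

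In the melanocyte lineage list, 10 of 23 rose, 3 fell (TFAP2B, SOX9 and PAX3), 6 were separated rises and 1 was a separated fall. S100A1, a calcium-binding protein, had 183, 116 and 242 normalised reads in EV, 1578, 1441 and 1484 in KD 86, and 854, 576 and 659.6 in KD 87, and rose 5.86-fold (log2 SE 0.17, adjusted p = 4.58e-06). For CSPG4, a melanoma surface proteoglycan, the groups overlapped, with 2631, 6709 and 2854 normalised reads in EV, 14380, 29930 and 21650 in KD 86, and 4202, 8361 and 4500 in KD 87, at a mean rise of 2.89-fold (log2 SE 0.15, adjusted p = 3.69e-05). EV replicate 2 exceeded the construct 87 replicates 1 and 3. Of 23 antigen presentation genes, 13 rose (8 without the block), 2 fell (HLA-DPB1 and TAP2) and 1 was a separated fall. The 5 separated rises included HLA-B, HLA-C, TAPBP and TAPBPL. HLA-B had 1383, 1313 and 1608 normalised reads in EV, 3035, 3893 and 4205 in KD 86, and 5168, 3752 and 4365 in KD 87, and rose 2.81-fold (log2 SE 0.15, adjusted p = 3.93e-05). HLA-C had 1141, 1117 and 1002 normalised reads in EV, 2025, 2240 and 1954 in KD 86, and 2117, 1877 and 1850 in KD 87, and rose 1.85-fold (log2 SE 0.12, adjusted p = 0.000203). HLA genes share long stretches, so the split of reads among them is uncertain. TAPBP, the peptide-loading chaperone tapasin, had 515, 1078 and 680.4 normalised reads in EV, 1618, 3544 and 2945 in KD 86, and 1434, 1951 and 1497 in KD 87, and rose 2.81-fold (log2 SE 0.15, adjusted p = 4.28e-05).

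Among MYC targets, ribosome biogenesis genes and chaperones, more genes fell than rose. Of 43 genes listed as MYC targets or for ribosome biogenesis, 30 fell, 1 rose (POLR1B) and 14 were separated falls, with a median of -0.66. DKC1, which modifies ribosomal RNA, had 4113, 3946 and 2940 normalised reads in EV, 1598, 1368 and 1330 in KD 86, and 2381, 2830 and 2601 in KD 87, and fell 1.88-fold (log2 SE 0.13, adjusted p = 0.000415). NOP56, another nucleolar RNA-modifying factor, had 4120, 4101 and 4573 normalised reads in EV, 2154, 1900 and 1785 in KD 86, and 2297, 3033 and 2660 in KD 87, and LYAR, a nucleolar protein, had 2386, 1654 and 2069 normalised reads in EV, 1027, 761 and 872 in KD 86, and 575, 756 and 1171 in KD 87. They fell 1.88-fold (log2 SE 0.13, adjusted p = 0.000422) and 2.40-fold (log2 SE 0.19, adjusted p = 0.0005). Of 34 heat shock proteins and chaperones, 24 fell, 0 rose (0 also at an unadjusted p under 0.05 in limma) and 13 were separated falls, with a median of -0.72. FKBP4, a co-chaperone of HSP90, had 3593, 3382 and 2413 normalised reads in EV, 809, 721 and 799 in KD 86, and 2044, 2301 and 2055 in KD 87, and fell 2.40-fold (log2 SE 0.14, adjusted p = 7.12e-05). CHORDC1, another HSP90 co-chaperone, had 1736, 1503 and 1797 normalised reads in EV, 596, 488 and 727 in KD 86, and 814, 957 and 1315 in KD 87, and fell 2.16-fold (log2 SE 0.14, adjusted p = 0.000145). HSPE1, the partner of HSPD1, was called but overlapped, with 3692, 1043 and 3991 normalised reads in EV, 814, 376 and 721 in KD 86, and 916, 792 and 1841 in KD 87. EV replicate 2 lay below the construct 87 replicate 3.

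Of 31 genes of cholesterol and fatty acid synthesis, 18 fell and 3 rose (INSIG2 and SC5D among them), with 8 separated falls and 2 separated rises. Without the block 10 fell and 2 rose. SCD, a fatty acid desaturase, had 3633, 4365 and 4435 normalised reads in EV, 1554, 1730 and 1696 in KD 86, and 1384, 1975 and 1479 in KD 87, and fell 2.54-fold (log2 SE 0.12, adjusted p = 2.51e-05). INSIG1, which holds back the sterol sensor, had 822, 459 and 1141 normalised reads in EV, 399.8, 375 and 410.4 in KD 86, and 192, 209 and 291 in KD 87, and fell 2.52-fold (log2 SE 0.19, adjusted p = 0.000348). For polyamine and methyl donor enzymes, 13 of 20 fell (7 without the block, 8 without EV replicate 1) and 1 rose (OAZ3). OAZ1, the antizyme that directs ornithine decarboxylase to degradation, had 10600, 5179 and 7332 normalised reads in EV, 2408, 1998 and 2941 in KD 86, and 1645, 2093 and 2846 in KD 87, and fell 3.25-fold (log2 SE 0.20, adjusted p = 0.000109). SRM, spermidine synthase, had 4275, 3888 and 2610 normalised reads in EV, 1845, 1589 and 1279 in KD 86, and 2232, 2696 and 2024 in KD 87, and fell 1.86-fold (log2 SE 0.13, adjusted p = 0.000418). NNMT and GDA were the remaining named members. GDA, guanine deaminase, is an enzyme of purine metabolism, and the counts of this list include it.

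Most members of 3 lists of short transcripts were called lower, while few lay below EV in all 6 knockdown libraries, which 6.96% of all tested genes did. Of 54 genes of oxidative phosphorylation, 40 fell, 1 rose (COX7C) and 1 was a separated fall (SDHA). Of 38 proteasome subunits and partners, 26 fell, 0 rose and 3 were separated falls (PSMC1, PSMD14 and PSMD7). Of 48 cytosolic ribosomal proteins, 27 fell, 0 rose and 0 were separated. At an unadjusted p under 0.05 in limma, 0 proteasome genes and 1 ribosomal protein were higher. Without the block 9, 9 and 0 fell. With a length trend removed from each library, 24, 17 and 12 fell. Without EV replicate 1 the numbers were 13, 15 and 3, without EV replicate 2 they were 47, 23 and 40, and without EV replicate 3 the number was 19 for oxidative phosphorylation and 6 for ribosomal proteins. Without construct 86 replicate 3, 16 ribosomal proteins fell.

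EV replicate 2 was the low EV library in these lists. The summed level of the ribosomal proteins was 1093000, 474000 and 1154000 normalised reads in EV, 682000, 454700 and 635500 in KD 86, and 667500, 499700 and 784000 in KD 87. EV replicate 2 thus lay below 5 of the 6 knockdown libraries, and replicate 2 was the lowest library of each group. RPL24, a protein of the large subunit, had 28480, 6821 and 34820 normalised reads in EV, 7834, 3865 and 7967 in KD 86, and 11560, 7426 and 17350 in KD 87, and the blocked fit gave a fall of 2.24-fold (log2 SE 0.22, adjusted p = 0.00176). RPL38, RPL5 and RPS10 fell 1.94-fold (log2 SE 0.20, adjusted p = 0.00313), 1.64-fold (log2 SE 0.16, adjusted p = 0.00445) and 1.84-fold (log2 SE 0.20, adjusted p = 0.00494). None of the 4 passed without the block, with adjusted p-values of 0.108, 0.0761, 0.146 and 0.313, and RPS10 did not pass without EV replicate 1 (0.0552). UQCRH, a subunit of respiratory complex III, had 8893, 3546 and 9239 normalised reads in EV, 1991, 1270 and 2238 in KD 86, and 4821, 3548 and 5834 in KD 87, and fell 2.31-fold (log2 SE 0.15, adjusted p = 0.000169). NDUFS8 of complex I and ATP5C1 of the ATP synthase fell 1.82-fold (log2 SE 0.16, adjusted p = 0.00157) and 1.63-fold (log2 SE 0.14, adjusted p = 0.00194). PSMA3, a core proteasome subunit, had 3420, 1442 and 4293 normalised reads in EV, 1111, 682 and 1223 in KD 86, and 1379, 1337 and 2366 in KD 87, and fell 2.19-fold (log2 SE 0.18, adjusted p = 0.000592). PSMC1, a subunit of the regulatory cap, had 929, 742 and 636 normalised reads in EV, 536, 455 and 410.4 in KD 86, and 365, 408 and 432 in KD 87, and fell 1.76-fold (log2 SE 0.15, adjusted p = 0.00136). PSMA7 and PSMA4 fell 1.84-fold (log2 SE 0.15, adjusted p = 0.00101) and 1.77-fold (log2 SE 0.15, adjusted p = 0.0015).

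Transcript length moved with the change over the whole table. Tested genes were split into 5 bins of equal size by length (the mean over a gene's transcripts in the GENCODE v29 basic annotation). The median log2 change was -0.361 in the shortest bin (70 to 1476 bases), -0.163 and -0.001 in the next bins, 0.105 in the bin after these and 0.264 in the longest (4353 bases and over). Separated rises made up 3.12% of the shortest bin and 10.6% of the longest, and separated falls 7.98% and 3.53%. The median transcript length was 3069 bases among the separated rises, 2168.5 among the falls and 2572.5 over all tested genes. The part of length in these changes was not tested beyond the fit with the trend removed, in which 3085 genes were higher and 3457 lower, and 1271 and 1093 were separated. In that fit 55 of 58 G2/M genes and 38 of 45 G1/S genes were lower, and 26 of 37 matrix proteins and 30 of 38 lysosomal genes higher. Other lists moved more. Receptor tyrosine kinases went from 13 higher and 2 lower to 9 and 6, and integrins and adhesion genes from 17 higher to 14. MYC targets and ribosome biogenesis genes went from 30 lower to 38. The median length was 878.5 bases in the oxidative phosphorylation list, 923.5 in the ribosomal proteins, 1376 in the proteasome list and 4766 in the matrix list.

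**Figure D5:**
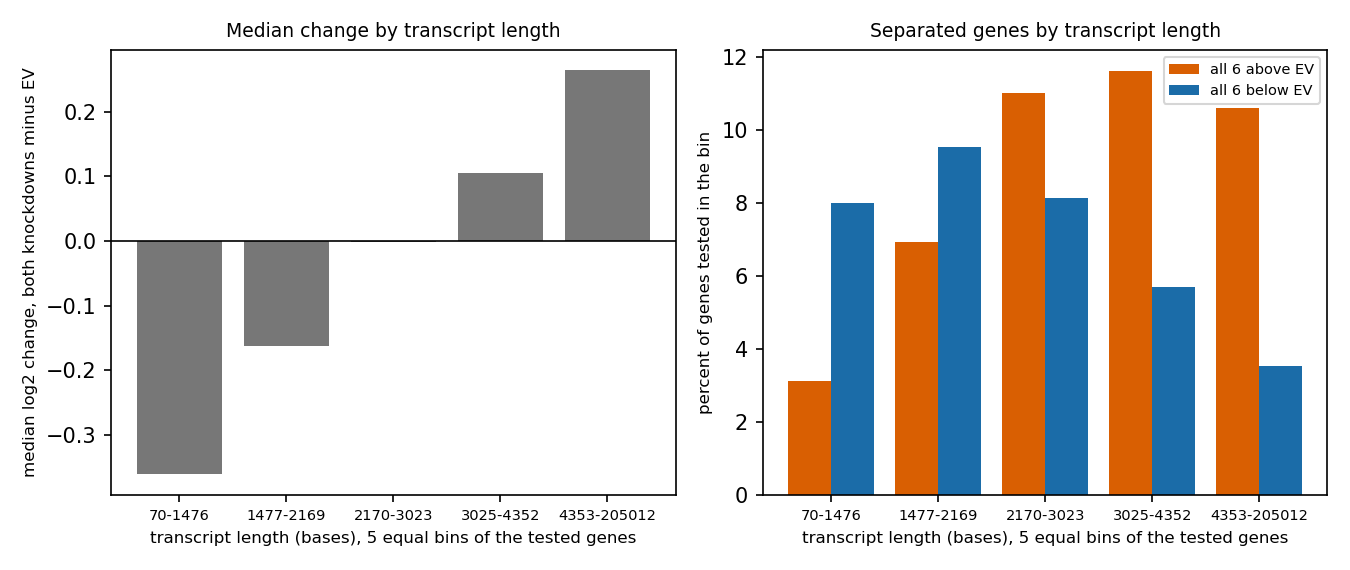
Left, median log2 change of the mean of both knockdowns minus EV in 5 equal bins of the tested genes by transcript length (bases); right, percent of each bin that was separated. The median goes from -0.361 in the shortest bin to 0.264 in the longest, and the share of separated rises from 3.12% to 10.6%.

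The lamins, which the title of the series points to, were outside the separated genes. LMNA, lamin A/C, had 24820, 33850 and 18250 normalised reads in EV, 26610, 22960 and 14770 in KD 86, and 22690, 25880 and 18540 in KD 87, with a mean change of -0.21 on the log2 scale (SE 0.16, adjusted p = 0.308). LMNB1 had 2223, 2876 and 1316 normalised reads in EV, 942, 925 and 861 in KD 86, and 1022, 1878 and 1304 in KD 87, and LMNB2 had 2894, 4252 and 1481 normalised reads in EV, 1858, 1782 and 1257 in KD 86, and 1488, 2187 and 1398 in KD 87. They fell 1.83-fold (log2 SE 0.19, adjusted p = 0.00344) and 1.61-fold (log2 SE 0.17, adjusted p = 0.00815), with overlapping groups, and LMNB2 did not pass without the block (adjusted p = 0.121), nor without EV replicate 1 (0.0511) or EV replicate 2 (0.0596). EMD, the inner membrane protein emerin, had 1062, 924 and 685 normalised reads in EV, 749.7, 739 and 728 in KD 86, and 1241, 1229 and 1113 in KD 87, with a mean change of 0.10 (SE 0.13, adjusted p = 0.553). With the length trend removed the change of EMD was 0.348 and passed (adjusted p = 0.0416). Over the lamina and envelope list, 5 of 22 rose (TOR1AIP2, TOR1A, LEMD2, SYNE1 and MAN1A1) and 5 fell. MAN1A1 encodes a Golgi mannosidase and not an envelope protein, so its place in this list is an error that the counts include. Without the block 1 rose, and leaving out single libraries left 1 to 4. TOR1AIP2 was the 1 separated rise, and separated falls were LBR, BANF1 and TMPO. LBR, the lamin B receptor, had 1941, 1729 and 1671 normalised reads in EV, 1029, 825 and 931 in KD 86, and 1165, 1313 and 1397 in KD 87, and fell 1.63-fold (log2 SE 0.13, adjusted p = 0.0014). BANF1, which links DNA to the envelope, had 2986, 1799 and 2144 normalised reads in EV, 1626, 1166 and 1263 in KD 86, and 1286, 1353 and 1478 in KD 87, and TMPO, lamina-associated polypeptide 2, had 3966, 3900 and 3326 normalised reads in EV, 2812, 2110 and 2537 in KD 86, and 1262, 1884 and 2332 in KD 87. They fell 1.67-fold (log2 SE 0.15, adjusted p = 0.00217) and 1.78-fold (log2 SE 0.18, adjusted p = 0.00407).

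Of 42 heterochromatin and Polycomb genes, 9 rose and 12 fell, shares close to those of all tested genes. Without the block 6 fell, and without EV replicate 2 or construct 86 replicate 2, 7 fell. Separated rises were HMGA2, JARID2, PHC2, LRIF1 and ATRX, and separated falls were EZH2, HMGB2, RBBP7 and HELLS. JARID2, a subunit that guides Polycomb complex PRC2, had 200.9, 382 and 207 normalised reads in EV, 624, 929 and 788 in KD 86, and 653, 736 and 460.2 in KD 87, and rose 2.71-fold (log2 SE 0.16, adjusted p = 9.05e-05). EZH2, the methyltransferase of PRC2, had 711, 800.3 and 661 normalised reads in EV, 318, 350.1 and 369 in KD 86, and 332, 517 and 459 in KD 87, and fell 1.87-fold (log2 SE 0.14, adjusted p = 0.000583). HMGB2, an HMG-box protein, had 4286, 2114 and 3119 normalised reads in EV, 1173, 1000 and 1102 in KD 86, and 872, 1339 and 1844 in KD 87, and fell 2.57-fold (log2 SE 0.23, adjusted p = 0.000903).

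The mean of both knockdowns hides genes that moved apart. For 478 genes (3.46% of those tested) all 3 libraries of one construct lay above EV and all 3 of the other below, 240 with construct 86 above and 238 with construct 87 above, both against the same EV libraries. CADM3, a neuronal adhesion molecule, had 31.7, 14.1 and 17.9 normalised reads in EV, 526, 325 and 174 in KD 86, and 5.94, 1.999 and 2.98 in KD 87. SORCS1, a sorting receptor, had 39.6, 64.4 and 61.5 normalised reads in EV, 321, 440.4 and 362 in KD 86, and 15.8, 14.0 and 16.9 in KD 87. RHBDL2, a rhomboid protease, had 46.5, 21.1 and 25.8 normalised reads in EV, 352, 337 and 392 in KD 86, and 18.8, 17.99 and 17.9 in KD 87. These 3 were the widest with construct 86 above. HIST2H2BE, a histone H2B gene, had 88.1, 54.4 and 75.4 normalised reads in EV, 14.2, 21.1 and 40.4 in KD 86, and 1137, 417 and 329 in KD 87. HCP5, a non-coding transcript of the HLA region, had 76.2, 84.6 and 93.2 normalised reads in EV, 9.15, 21.1 and 32.4 in KD 86, and 417, 232 and 212 in KD 87. CAB39L, a calcium-binding protein 39 relative, had 29.7, 50.3 and 62.5 normalised reads in EV, 8.14, 9.03 and 18.2 in KD 86, and 212, 136 and 108 in KD 87. For HIST2H2BE, HCP5 and CAB39L construct 87 was above. Their means over both knockdowns changed by 0.66, -0.22 and -0.14 on the log2 scale and did not pass. HIST2H2BE passed without construct 86 replicate 1 (adjusted p = 0.0169) or construct 87 replicate 3 (0.0346), with changes of 0.998 and 0.943. SORCS1 had a mean change of 0.51 and did not pass (adjusted p = 0.0596). It passed with a pseudocount of 10 (0.0127), with no variance trend (0.0385) and without construct 87 replicate 2 (0.0456). CADM3 passed at an adjusted p of 0.0313, but not without EV replicate 1 (0.112) or 2 (0.13), construct 86 replicate 1 (0.072) or 2 (0.109) or construct 87 replicate 3 (0.0584). RHBDL2 passed (2.73-fold (log2 SE 0.23, adjusted p = 0.000665) higher) although its construct 87 libraries all lay below EV.

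By annotation, 1152 of 12268 protein-coding genes (9.39%) were separated rises and 864 (7.04%) separated falls. Antisense transcripts gave 2.68% and 6.08% of 411, lincRNAs 2.33% and 4.91% of 387 and pseudogenes 2.60% and 6.93% of 462. Rises thus outnumbered falls among protein-coding genes and falls outnumbered rises among the other 3 types. On the X chromosome, which carries the SPANX genes, 48 of 479 genes were separated rises and 30 (6.26%) separated falls, shares near the 8.65% and 6.96% of all genes. By mean level, the lowest of 5 equal bins of genes held 5.57% separated rises and the highest bin 10.2%, and for the falls the shares were 7.34% and 6.92%. A mean level under 50 normalised reads was found for 94 of the 1196 rises and 152 of the 962 falls.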

How the data were processed

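Libraries were made from total RNA of A375 cells with a QuantSeq 3′ mRNA kit and read single-end, per the labels' protocols. The deposited values are scores, gene read counts that the authors scaled by a constant per library and rounded. For the authors' steps, the submitters' processing notes name STAR, featureCounts, Subread and edgeR, without versions or settings, and hg19. Each file lists 60420 IDs, of which 1405 are repeated (the maximum row was used). A filter by the authors leaves 45742 IDs at 0 everywhere. Another 400 are above 0 only with EV and construct 86 and 453 only with construct 87. The 13825 IDs above 0 in all 3 groups were tested.

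Values were rescaled by the TMM formula (trims of 30% and 5%) and log2(value + 1) was fitted with limma 3.58.1 in R 4.3.3, with a variance trend, a coefficient per group and the replicate number as a block (4 residual degrees of freedom). The block follows from the shared replicate numbers in the labels, and correlations between libraries are given in the closing part. Each p is two-sided, with Benjamini-Hochberg adjustment across the 13825 genes. A count test had been planned where reads could be recovered and was not run. On simulated data for this contrast (13825 genes, 10 simulations, 200 changed genes) 60.6% of the genes changed 2-fold and 94.3% of those changed 4-fold were called. False calls averaged 5.8. Changed genes made up a far smaller share in the simulations than the 6498 of 13825 called here. The simulated noise was normal, with block shifts built in, so these rates do not carry over to the real data.

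The members, the 40 gene lists and the tests were chosen with earlier results of these data known, so lists are described by counts and medians. Named genes are the SPANX genes above 0 in all 3 groups, LMNA, LMNB1, LMNB2 and EMD. Then come 15 rises and 15 falls with the widest gaps and 5 of each with the largest change in reads (called, separated, mean of at least 50 normalised reads). Up to 3 genes each way moved oppositely by the constructs follow, and up to 4 members of each list described with the smallest adjusted p. Some genes that the rule names are not reported here. HSPA1A was passed over because of its near-identical copy HSPA1B. Members named as the few of a list that moved one way or were separated, the rest of the cell type markers, and the genes at the edge of the rule were chosen after their values were seen. Alternatives were another scaling, summed rows, a pseudocount of 10, a mean of at least 20 normalised reads, no variance trend, no block, a spline (4 degrees of freedom) in log length removed, and each library left out.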

Additional observations from a re-analysis of the deposited data

Results flagged for a closer look

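Each gene named in the report was compared between the constructs, and 72 of 126 differed by limma at an adjusted p under 0.05. Over all tested genes 44.1% differed. Values are the log2 level with construct 87 minus that with construct 86, from the fit with the replicate block, and the question of a cause was not tested.

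Most of these genes were higher than EV in the mean of both knockdowns, and rose more with construct 86. The log2 differences were CITED1 -0.86, CTSS -1.27, NIPAL4 -1.12, FBXO32 -1.27, SPARC -1.25 and DCBLD2 -0.62. For the next genes of this group they were HMGA2 -1.05, BTG2 -1.15, SCUBE3 -5.76, SPON2 -5.19, ACAN -3.89, ITGA5 -1.34 and ITGAV -1.14. In the same sense the values were ITGB3 -2.57, TIMP2 -1.13, ADAM12 -0.93, MMP15 -0.97, SMPD1 -1.19, CTSA -0.57 and ARSA -0.64. A further set gave BIRC2 -0.93, KDR -0.84, PDGFRA -1.35, DDR1 -0.998, EPHB3 -2.13, BAMBI -0.97 and TGFBR3 -2.06. The log2 differences were SMURF2 -0.66, DUSP10 -0.80, SPRY4 -2.03, IL6ST -1.45, S100A1 -1.12 and CSPG4 -1.96. For the next genes of this group they were TAPBP -0.67, BCL6 -1.85, C10orf10 -2.50, KLF4 -1.55 and CDK6 -1.24. ITGB8 rose more with construct 87, by 0.85.

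Of the genes lower than EV in the mean, those that fell more with construct 86 had positive differences. They were CCNB2 0.74, HMMR 1.30, HSP90AA1 0.91, HSPD1 0.89, SPANXD 2.12, LMNB1 0.58 and LBR 0.48. Then came PLK1 0.61, DKC1 0.86, SRM 0.57, NOP56 0.45, FKBP4 1.46, CHORDC1 0.76 and HSPE1 0.86. The last of them were UQCRH 1.38, NDUFS8 0.82, PSMA3 0.74, PSMA7 0.60, PSMA4 0.51 and RPL24 0.88. Those that fell more with construct 87 had negative differences. These were NR2F1-AS1 -1.12, ST8SIA4 -1.08, NR2F1 -0.78, SPANXC -1.08, GINS2 -0.61 and INSIG1 -0.80.

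In the last group the single-construct changes had opposite signs. The values were CADM3 -6.16, SORCS1 -4.50, RHBDL2 -4.23, HIST2H2BE 4.49, HCP5 3.81, CAB39L 3.61 and EMD 0.69.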

How the results depend on the processing

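Same-numbered libraries of different groups deviated alike from their group means (r between 0.207 and 0.745), and other pairs gave r between -0.66 and 0.151. Deviations cancel within a group, so a positive r for same-numbered pairs pulls down r for the other pairs. The contrast was weakest for EV replicate 1, with r of 0.207 to construct 87 replicate 1 and 0.151 to construct 87 replicate 3. Without the replicate block, 1815 genes were called higher and 1531 lower. Among the 126 named genes the block decided 9 calls (CADM3, VIM, LMNB2, ATP5C1, PSMA4, RPL24, RPL38, RPL5 and RPS10), and no named gene turned its direction there. Leaving out single libraries, the calls ranged from 2352 to 3098 higher and from 1900 to 3058 lower, both lowest without EV replicate 1. The separated genes ranged from 1234 to 2370 above and from 974 to 2286 below, both highest without EV replicate 2. Fewer libraries have to be passed whenever 1 is left out, but without EV replicate 1 the numbers were 1406 and 1162. The SPANX sum ranged from -3.721 to -2.835. Of the named genes, 3 reversed in direction, all with means that did not pass. Left out 1 library at a time, CAB39L ranged from -0.463 to 0.108, EMD from -0.047 to 0.228 and HCP5 from -0.506 to 0.076. The sign turned for CAB39L with a pseudocount of 10 (0.051) and without EV replicate 2, EV replicate 3 or construct 87 replicate 3, for EMD without EV replicate 3, and for HCP5 without construct 86 replicate 1. Counts of a few members moving against their list's main direction also moved with the block, the length trend or single libraries. Values as deposited, median-of-ratios scaling, summed repeated rows and a mean level of at least 20 changed no call of a named gene, and gave 3173 to 3216 higher and 3164 to 3362 lower calls. Planned count tests on recovered reads were not run, since in some libraries 1 read is worth less than 1 unit of the rounded values and the reads behind large values are not unique. Low reads limit the precision of SPANXD and MOBP.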

Other observations

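The remaining 16 lists are given by their counts, to be set against 23.2% higher and 23.8% lower among all tested genes. Some of the lists lay near these shares. The counts were not repeated without the block or without single libraries. Of 32 axon guidance genes 20 were higher and 5 lower, and of 25 cytokines and chemokines 12 were higher and 3 lower. The mesenchymal switch factors gave 9 higher and 4 lower of 20, the TEAD, YAP and SRF-linked genes 10 and 3 of 30, the interferon and nucleic acid sensing genes 14 and 5 of 44, and the BCL2 family 5 and 2 of 17. Replication-dependent histones, measured by their polyadenylated forms, gave 5 and 2 of 12. ABC transporters gave 9 and 6 of 27. Lower counts led among the NRF2, glutathione and reductase genes, with 2 higher and 22 lower of 36, and the ATF4 and unfolded protein response, with 7 and 14 of 35. Growth factors and binding proteins gave 8 and 12 of 30, and glycolysis and hypoxia genes 5 and 8 of 30. Cancer-testis antigens gave 0 higher (0 also at an unadjusted p under 0.05 in limma) and 8 lower of 18, SPANXC and SPANXD among them. The fibroblast, epithelial and leukocyte markers gave 7 and 0 of 8, 0 and 3 of 3, and 1 and 0 of 1, and no endothelial marker was tested. The counts of 0 among these markers were also 0 at an unadjusted p under 0.05 in limma.

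The 14 mitochondrially encoded transcripts that were tested went against the nuclear genes of oxidative phosphorylation. In the blocked fit 8 were higher and 0 lower (0 also at an unadjusted p under 0.05 in limma), with a median of 0.73 on the log2 scale, and 0 were separated. Their summed level was 1179, 2146 and 5491 normalised reads in EV, 2325, 3590 and 6535 in KD 86, and 2631, 4383 and 5798 in KD 87. Within each group replicate 3 was the highest library, by more than the difference between the groups. This set was picked after its values were seen.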
